A study of Mus musculus with 43 samples.

Results

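The 9 genes described here are interferon-stimulated genes of the mouse: Ifit1, Ifit3, Isg15, Irf7, Irf9, Oasl2, Rsad2, Bst2 and Ifih1. They were chosen by name and matched by symbol to 9 of 55401 gene identifiers in the expression tables. Their measured values did not enter the rule, but earlier results of these data were known when they were chosen. The study asked what the loss of Prmt1, the main arginine methyltransferase that places asymmetric dimethylation on histones and other proteins, changes in the male germline. Bulk RNA-seq covered whole testes at P7 (3 WT and 3 Prmt1-dKO libraries), and mini-Smart-seq2 covered spermatogonia sorted at P7 for EGFP (2 WT and 2 Prmt1-dKO libraries). CUT&Tag, which maps chromatin marks by an antibody-tethered transposase, gave 33 peak lists at P7 and P14.

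Prmt1-dKO mice carried Prmt1 lox/lox alleles, with exons 4 and 5 between the loxP sites, and Ddx4-CreERT2, a tamoxifen-inducible Cre driven by a germ cell promoter that also marks the cells with EGFP. The labels give tamoxifen on 3 days for both genotypes of the RNA libraries and for the Prmt1-dKO CUT&Tag samples, and the strain C57BL/6J for the WT CUT&Tag samples. The sorted controls are labelled WT, whereas the methods describe them as heterozygous Prmt1 +/lox mice that carry the same Cre, so both genotypes of that assay share it. All CUT&Tag lists were WT except for 2 Prmt1-dKO lists of H4R3me2s at P7. P14 samples are titled spermatogonia and labelled spermatocyte, and the entry names inside the P14 H4R3me2s lists carry another day than the label. The methods call the replicates biological, whether each came from a mouse of its own is not given in the labels, and p-values measure the spread between these libraries.

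Type I interferons are secreted when a cell senses foreign or misplaced nucleic acid. They bind the receptor Ifnar1 and Ifnar2, whose Janus kinases phosphorylate STAT proteins, and these join Irf9 to form a factor that binds the interferon-stimulated response element (ISRE). The genes switched on there include sensors such as Ifih1, effectors such as Ifit1, Isg15, Rsad2 and Bst2, and Irf7, which raises interferon production further. In the testis the programme is best known from somatic cells such as Sertoli cells and macrophages.

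The core of the ISRE was looked for in the promoter windows of RefSeq (GRCm38.p6), 250 bases before to 50 bases after each annotated start, as GAAA, any 2 bases and GAAA again or, read on the other strand, TTTC, any 2 bases and TTTC. All 9 genes had a window, and 6 of 9 held at least 1 core, against 3.44% of 32851 windows and 3.99% of 27025 genes. The sites that were found are shown with the cores in capitals and each sequence read 5′ to 3′ on the strand of its gene.
Ifit1: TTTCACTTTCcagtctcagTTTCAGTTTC
Ifit3, distal site: taagTTTCACTTTCctct
Ifit3, proximal site: tctgTTTCAGTTTCtact
Isg15: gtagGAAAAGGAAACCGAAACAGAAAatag
Rsad2: caacTTTCATTTTCagaa
Bst2: ccagGAAAATGAAACTGAAAggct
Ifih1: aatcGAAACAGAAAccga

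The Ifit1 site (chr19:34640785-34640813, plus strand) held 2 cores that begin at bases -104 and -85 from the start. Ifit3 held 2 separate cores, at chr19:34583369-34583386 and chr19:34583403-34583420 on the plus strand. Their core letters were the same as those of Ifit1, TTTCACTTTC and TTTCAGTTTC. Isg15 (chr4:156200871-156200900, minus strand) held 3 overlapping cores, and Bst2 (chr8:71537583-71537606, minus strand) held 2. Rsad2 (chr12:26456559-26456576) and Ifih1 (chr2:62646210-62646227), both on the minus strand, held 1 core each. The core of Ifih1 lay 32 to 41 bases after the start, and all others lay before it. No core was found in the windows of Irf7, Irf9 (2 windows) and Oasl2, which says only that these letters are absent there. The interferon-gamma activated site, TTC, any 3 bases and GAA, which reads the same on both strands, was found in 1 of the 9 genes, Bst2, against 8.3% of windows, and it overlapped the first ISRE core by 3 bases.

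Among 50 other type I interferon-stimulated genes written by hand, 38 had a window and 19 of these (50%) held an ISRE core. This count describes the windows and was not tested.

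The genes lie on different chromosomes apart from Ifit1 (chr19:34640871-34650009) and Ifit3 (chr19:34583531-34588731), neighbours on the plus strand in the Ifit cluster. Isg15 lies at chr4:156199424-156200818, Irf7 at chr7:141262706-141266481, Rsad2 at chr12:26442746-26456452, Bst2 at chr8:71534255-71537456 and Ifih1 at chr2:62595798-62646255, all on the minus strand. Irf9 (chr14:55603571-55610030) and Oasl2 (chr5:114896936-114912234) lie on the plus strand, in the coordinates of GENCODE vM21 on GRCm38. Ifit1 and Ifit3 have close paralogs (Ifit1bl1, Ifit1bl2 and Ifit3b) that may share reads with them, so their counts are uncertain. Irf7 overlaps Phrf1 on the opposite strand, and Irf9 overlaps Rnf31 on its own strand. Whether reads were counted by strand is not given.

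Bulk RNA-seq libraries held between 12396345 and 16598249 counts, and Smart-seq2 libraries between 15610392 and 18547103. The label of the bulk libraries is spermatogonia, but Sertoli cell markers summed to 7914 to 8983 CPM (counts scaled to a common library size with TMM) in WT, against 1481 to 1711 CPM for germ cell markers. For Prmt1 itself the CPM was 234 ± 14.1 in WT testes and 167 ± 27.9 in those of Prmt1-dKO (SD, n = 3 per genotype), which is a log2 fold change of -0.49 (FDR = 0.0334 from edgeR). The FDR lay between 0.0696 and 0.105 with any 1 library left out except Prmt1-dKO replicate 2. In sorted cells the CPM of Prmt1 was 183 ± 47.5 and 99.5 ± 18.3 (SD, n = 2 per genotype), with a log2 fold change of -0.88 (FDR = 0.133 from edgeR), called lower only without WT replicate 2 (-1.10). The sorted WT libraries stand apart from each other, with Irf9 at 235 counts in one and 0 in the other, and the fitted values of the members and of the pathway genes named there are given with and without each.

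In WT testes the order of levels per transcript length was led by Bst2, which encodes tetherin, a membrane protein that holds budding virions at the cell surface. Bst2 had 113 ± 25.6 TPM (the level per transcript length, SD, n = 3), and its lowest WT library, at 87.9, lay above every other member. Irf9 followed with 19.3 ± 3.60 TPM and Oasl2 with 17.7 ± 3.92 TPM, whose ranges overlapped each other. Irf7, Ifih1 and Isg15 had 4.21 ± 0.241, 3.08 ± 0.887 and 2.82 ± 2.11 TPM, each overlapping the next. Ifit3, Ifit1 and Rsad2 stood lowest, at 1.33 ± 0.940, 0.557 ± 0.352 and 0.480 ± 0.151 TPM, again with overlapping ranges. With the median in place of the mean, 5 of 9 genes kept their rank, as Irf9 and Oasl2 changed places and so did Ifit1 and Rsad2.

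In sorted WT spermatogonia, Bst2 (46.6 and 13.6 TPM) and Oasl2 (19.7 and 13.4 TPM), in the order of WT replicates 1 and 2, were the most abundant members by their means and overlapped each other. Irf9 had 8.55 TPM in one WT library and 0 in the other. Ifih1 had between 1.14 and 2.13 TPM, and Irf7 and Isg15 at most 0.29 TPM. Ifit1, Ifit3 and Rsad2 had 0 counts in both WT libraries, which allows for each gene up to 3 counts over the pair by counting error alone. By group means Ifit1, Ifit3, Isg15 and Rsad2 were the 4 lowest members in both assays, although the WT ranges of Isg15 and Irf7 overlapped in each.

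**Figure D1:**
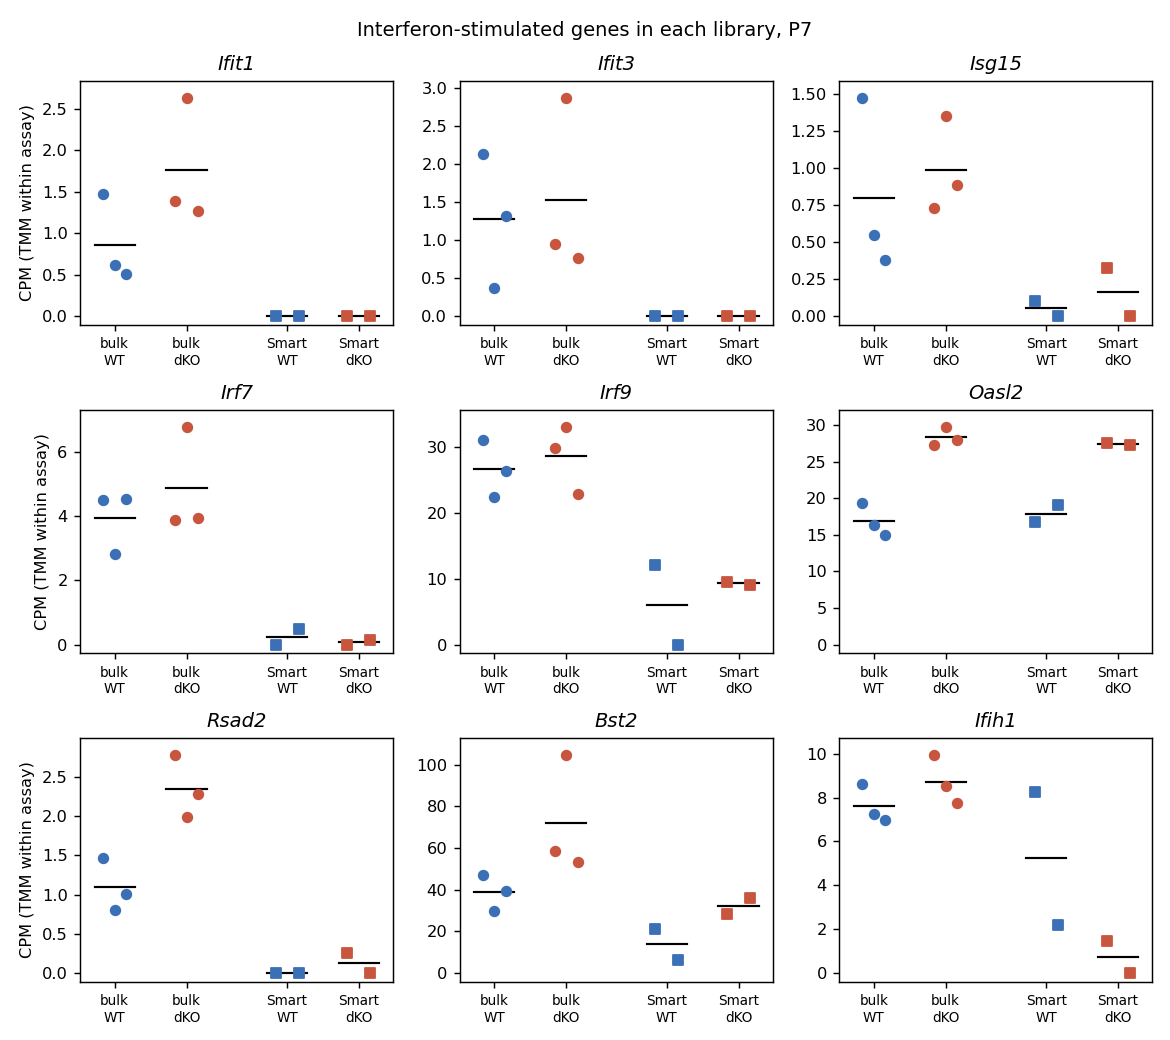
CPM (scaled by TMM within each assay, linear axes from 0) of the 9 genes in each P7 library, with circles for bulk RNA-seq, squares for Smart-seq2, WT in blue, Prmt1-dKO in red and bars for group means. In bulk RNA-seq the genotypes do not overlap for Oasl2, Rsad2 and Bst2, and Ifit1 and Ifit3 had 0 counts in all 4 Smart-seq2 libraries.

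In whole testes no member changed by the rule used, an FDR below 0.05 with at least a 2-fold difference. Of 9 genes tested, 0 were called by edgeR, against 5.32% of 16554 genes called higher and 1.78% called lower in Prmt1-dKO. DESeq2 called 0 members too, against 6.34% higher and 1.37% lower. Oasl2 and Bst2 passed the FDR alone, both higher in Prmt1-dKO by less than 2-fold, where 10.6% of all genes passed it higher and 8.51% lower. All 9 fitted differences were above 0, as were 52.1% of all genes, and their median log2 fold change was 0.31 against 0.023 over all genes. At an unadjusted p below 0.05, 3 members were higher and 0 lower, where 18.2% and 15.7% of all genes were.

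Among the effectors, Oasl2, a member of the oligoadenylate synthetase family that responds to double-stranded RNA, had the narrowest interval. It had 290, 267 and 238 counts in WT, compared with 374, 374 and 441 in Prmt1-dKO. The 3 Prmt1-dKO libraries lay above the 3 WT libraries, as for 20.9% of all genes (19.9% lay wholly below). Its level was 16.9 ± 2.27 CPM in WT, against 28.4 ± 1.29 in Prmt1-dKO (SD, n = 3 per genotype), a log2 fold change of 0.75 (SE 0.13, 95% interval 0.44 to 1.05, FDR = 0.00651 from edgeR). Under the 10 alternatives that refit the data, its FDR from edgeR or DESeq2 stayed below 0.05 (0.00034 to 0.0418). Per transcript length the groups overlapped, at 20.9, 18.8 and 13.3 TPM in WT and 23.9, 20.4 and 25.4 TPM in Prmt1-dKO, a difference that was not tested.

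Bst2 had 705, 482 and 628 counts in WT, compared with 801, 1312 and 840 in Prmt1-dKO. The groups did not overlap in counts or CPM, and Prmt1-dKO replicate 2 stood well above the other 2 libraries of its genotype. In TPM they overlapped, at 139, 87.9 and 111 in WT and 168, 240.4 and 138 in Prmt1-dKO. The level was 38.7 ± 8.83 CPM in WT, against 72.1 ± 28.2 in Prmt1-dKO, a log2 fold change of 0.90 (SE 0.26, interval 0.30 to 1.49, FDR = 0.0447 from edgeR). Without Prmt1-dKO replicate 2 the log2 fold change was 0.53 (FDR = 0.0129). Without Prmt1-dKO replicate 3 it was 1.07 (FDR = 0.0348), which passed the 2-fold rule. Without WT replicate 1, 2 or 3 or Prmt1-dKO replicate 1 the FDR lay between 0.0562 and 0.160.

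Rsad2, which encodes viperin, a radical SAM enzyme that makes a chain-terminating nucleotide against viral RNA synthesis, was counted with low numbers. It had 22, 13 and 16 counts in WT, compared with 38, 25 and 36 in Prmt1-dKO, without overlap between the groups. Its log2 fold change of 1.11 (SE 0.34, interval 0.34 to 1.87) just missed the threshold, with an FDR of 0.0502 from edgeR. It was called without Prmt1-dKO replicate 2 (log2 fold change 1.21, FDR = 0.0258) and not without any other library (FDR from 0.0782 to 0.198).

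Ifit1 and Ifit3 encode tetratricopeptide repeat proteins that bind viral RNA and block its translation. Ifit1 had 22, 10 and 8 counts in WT, compared with 19, 33 and 20 in Prmt1-dKO, so WT replicate 1 reached into the Prmt1-dKO range. The log2 fold change of Ifit1 was 1.02 (SE 0.49, interval -0.10 to 2.14, FDR = 0.182 from edgeR), and it lay between 0.63 without Prmt1-dKO replicate 2 and 1.61 without WT replicate 1, not called with any library left out. Ifit3 had 32, 6 and 21 counts against 13, 36 and 12, with full overlap, and a log2 fold change of 0.24 (interval -1.26 to 1.74, FDR = 0.832). The sign of Ifit3 turned without WT replicate 2 (-0.22) and without Prmt1-dKO replicate 2 (-0.57).

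Isg15, the ubiquitin-like protein that is attached to newly made proteins in interferon-treated cells, had 22, 9 and 6 counts in WT, compared with 10, 17 and 14 in Prmt1-dKO. The ranges overlapped, with WT replicate 1 the highest of all 6 libraries, and the log2 fold change was 0.31 (interval -0.91 to 1.53, FDR = 0.727 from edgeR). Isg15 turned to -0.048 without WT replicate 3. A 2-fold difference could not be told from none for Ifit1, Ifit3 and Isg15, whose intervals held both.

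The transcription factors did not pass the test. Irf9, the DNA-binding partner of Stat2, had 466, 367 and 420 counts in WT, compared with 410, 416 and 362 in Prmt1-dKO, a log2 fold change of 0.10 (SE 0.17, interval -0.29 to 0.49, FDR = 0.717 from edgeR). The interval leaves out a 2-fold change in either direction. Irf7 had 67, 46 and 72 counts against 53, 85 and 62, a log2 fold change of 0.30 (interval -0.38 to 0.98, FDR = 0.528). Both turned to slightly below 0 when Prmt1-dKO replicate 2 was left out (-0.015 for Irf9 and -0.014 for Irf7), and Irf9 also without WT replicate 2 (-0.026).

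Ifih1, the cytosolic sensor of long double-stranded RNA, had 129, 118 and 111 counts in WT, compared with 136, 107 and 122 in Prmt1-dKO. The ranges of the genotypes overlapped, with a log2 fold change of 0.20 (SE 0.18, interval -0.20 to 0.60, FDR = 0.472 from edgeR). With each library left out it ranged from 0.075 (without Prmt1-dKO replicate 1) to 0.28. A 2-fold change of Ifih1 also lies outside this interval.

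**Figure D2:**
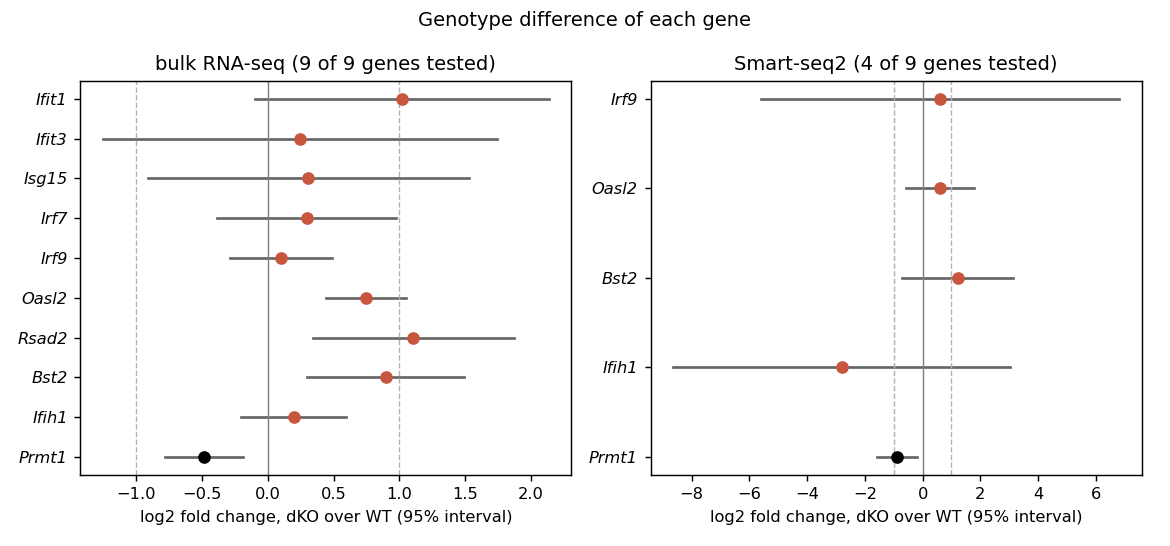
Log2 fold change of each tested gene, Prmt1-dKO over WT, with its 95% interval from edgeR, in bulk RNA-seq (left) and Smart-seq2 (right), on axes of different width. Dashed lines mark a 2-fold difference and Prmt1 is shown in black. In bulk RNA-seq the intervals of Oasl2, Rsad2 and Bst2 lie above 0, and in Smart-seq2 the intervals of all 4 members include 0.

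The mean profile of the 9 genes over the 6 bulk libraries, each gene centred on its own mean, was closest to 5 genes outside the lists, Kcnu1, Pld4, Trim15, 2810029C07Rik and Tnfaip2, with root mean square distances of 0.08 to 0.14 log2 units over 6 libraries. The median distance of all 16554 genes was 0.49, and the members, each of which is part of the mean, lay between 0.22 (Bst2) and 0.58 (Ifit3, farther than the median gene). In the mean profile Prmt1-dKO replicate 2 was the highest library and WT replicate 2 the lowest. None of the 5 genes was called by edgeR in bulk RNA-seq (FDR from 0.257 to 0.467).

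In sorted spermatogonia 4 of 9 members had enough counts to be tested, and edgeR called 0 of them, as it called 0% of 16443 genes there. DESeq2 called 0 members, against 7.33% of genes higher and 3.93% lower. Of the 4, 3 had a fitted difference above 0, as had 55.9% of all genes. None of the 4 had an unadjusted p below 0.05, where 16.4% of all genes had one with a higher and 7.35% with a lower value. The smallest FDR over all genes was 0.0774, and 0.15 was the median log2 fold change.

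Oasl2 had 325 and 364 counts in WT, compared with 428 and 412 in Prmt1-dKO. In CPM the Prmt1-dKO pair lay wholly above the WT pair, as for 36.3% of all genes, and the log2 fold change was 0.61 (SE 0.45, interval -0.57 to 1.80, FDR = 0.521 from edgeR). With each library left out it ranged from 0.54 to 0.72 and was not called. In TPM the WT pair, at 19.7 and 13.4, enclosed the Prmt1-dKO pair, at 16.3 and 18.4. Bst2 had 412 and 122 counts against 441 and 541, again without overlap in CPM, a log2 fold change of 1.21 (SE 0.73, interval -0.71 to 3.13, FDR = 0.421). Bst2 was called without WT replicate 1, at a log2 fold change of 2.35 (FDR = 5.92e-06), in a fit that called 29.5% of 17942 genes higher and 12.0% lower, and had 0.61 without WT replicate 2 (FDR = 0.140). Such a fit takes its spread from the genotype that still has 2 libraries.

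Irf9 had 235 and 0 counts in WT, compared with 148 and 137 in Prmt1-dKO. Its WT libraries enclosed both Prmt1-dKO libraries, and the interval of its log2 fold change ran from -5.59 to 6.81 (FDR = 0.925 from edgeR). Irf9 was called higher without WT replicate 1, where the remaining WT library held 0 counts, and had -0.37 without WT replicate 2. Ifih1 had 160 and 42 counts in WT, compared with 23 and 0 in Prmt1-dKO, so both Prmt1-dKO libraries lay below, as for 20.3% of all genes. Its log2 fold change was -2.81 (SE 2.21, interval -8.65 to 3.03, FDR = 0.556 from edgeR). Without WT replicate 2 it was called lower at -3.45 (FDR = 0.0012), in a fit that called 11.2% of 18164 genes lower and 22.5% higher, and not without WT replicate 1 (-1.54, FDR = 0.322). It was not called without Prmt1-dKO replicate 1 (-9.54, where the remaining Prmt1-dKO library held 0 counts) or 2 (-1.84) either.

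The other 5 members were near or at 0 in the sorted cells. Ifit1 and Ifit3 had 0 counts in all 4 libraries. Rsad2 had 4 counts in one Prmt1-dKO library and 0 in the other 3. Isg15 had 2 and 0 counts in WT and 5 and 0 in Prmt1-dKO, and Irf7 had 0 and 9 against 0 and 2. A difference was not detectable for these genes at this depth.

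The genotype differences of the members were also compared between whole testes and sorted cells. The comparison bears on the 4 members tested in both assays, since the other 5 had at most 11 counts over the sorted libraries. Of the 4, 0 differed between the assays by the interaction term of edgeR (FDR below 0.05 and folds at least 2-fold apart), against 17.2% of 19608 genes. Oasl2 differed least, by -0.043 (SE 0.30), with Bst2 at 0.40 (SE 0.69) and Ifih1 at -2.92 (FDR = 0.218). With sorted WT replicate 1 left out 2 members passed this test, as did 35.8% of all genes. With sorted WT replicate 2 left out 1 member passed it, as did 30.5% of genes, and with sorted Prmt1-dKO replicate 1 left out 1 member and 12.7% did.

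Genes upstream of the members were measured from hand-written lists. The 21 interferon ligands were nearly silent in whole testes, with summed levels of at most 0.134 CPM in WT, against 0.365 CPM in Prmt1-dKO testes, and 17 of them had 0 counts in all 6 bulk libraries, Ifnb1 among them. In sorted cells 20 of the 21 had 0 counts in all 4 libraries, and Ifnk had 0 and 25 counts in WT and 0 in both Prmt1-dKO libraries, which sums to at most 1.31 CPM. The receptor and Janus kinase list and the list of nucleic acid sensors and adaptors are reported in part, so neither counts nor single genes of them are given for whole testes.

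Of 38 other type I interferon-stimulated genes tested in whole testes, 2 were called higher and 0 lower, where 5.32% and 1.78% of all genes were, with 30 fitted differences above 0 and a median log2 fold change of 0.28. Ifitm1 and Ifitm3 encode small membrane proteins that block virus entry and are also known as markers of early germ cells. Ifitm1 had 173, 223 and 229 counts in WT, compared with 593, 791 and 758 in Prmt1-dKO. Every Prmt1-dKO library held more than double the WT counts, and Ifitm1 rose by 1.96 on the log2 scale (SE 0.17, FDR = 0.000609 from edgeR), within 1.79 to 2.05 with each library left out. Ifitm3 had 281, 253 and 285 counts in WT, compared with 366, 696 and 391 in Prmt1-dKO, a log2 fold change of 1.03 (SE 0.29, FDR = 0.036). Ifitm3 lost its call when WT replicate 1, 2 or 3 was left out (FDR from 0.091 to 0.127) and had 0.56 without Prmt1-dKO replicate 2.

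Below 2-fold, Xaf1 (0.94, FDR = 0.0369), Ifi203 (0.87, FDR = 0.0314) and Tor3a (0.59, FDR = 0.0488) were higher and Pml (-0.56, FDR = 0.0086) was lower by edgeR, and these genes, like the others given here that passed the FDR alone, were named after their values were seen. Of 19 genes of the interferon-gamma response and antigen presentation, 0 were called, and 5 passed the FDR alone, all higher in Prmt1-dKO testes, where 10.6% of all genes passed it higher and 8.51% lower. H2-K1, a classical class I molecule, had 51.0 CPM in WT, against 94.2 in Prmt1-dKO (log2 fold change 0.88, FDR = 0.0158), Psmb10 had 0.82 (FDR = 0.0267), Tap2 0.73 (FDR = 0.0162), Icam1 0.60 (FDR = 0.03) and Irf1 0.56 (FDR = 0.0154). Without Prmt1-dKO replicate 3, 1 gene of this list was called. Of 15 brakes on interferon signalling 0 were called, with Socs3 at 0.58 (FDR = 0.0328) and Ptpn11 at -0.53 (FDR = 0.0188).

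**Figure D3:**
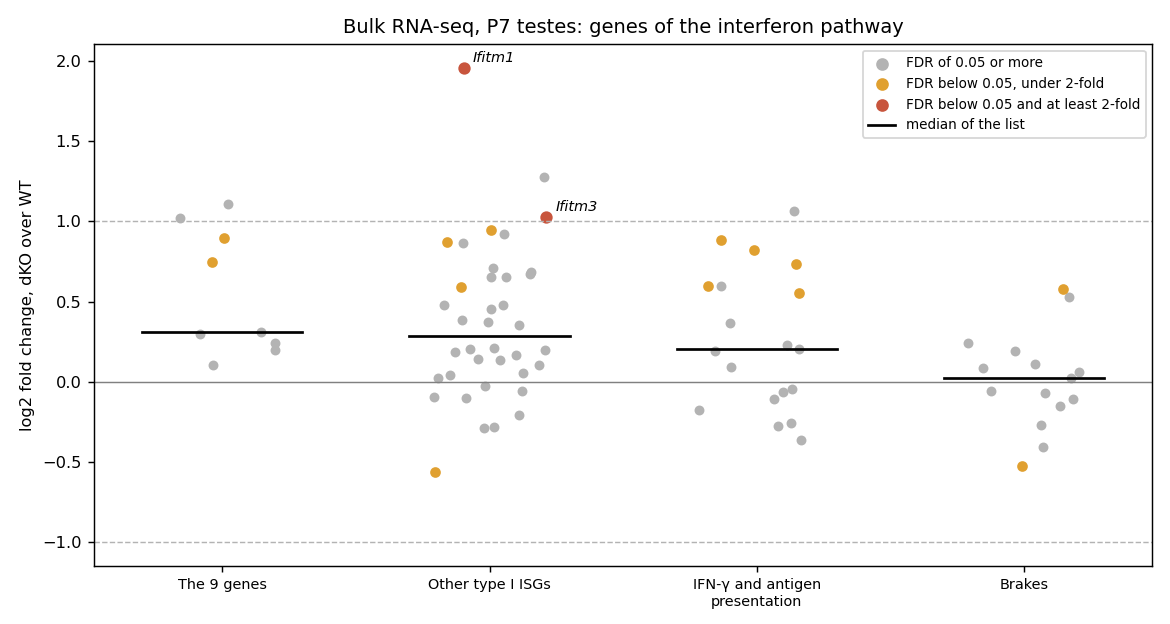
Log2 fold change in whole testes, Prmt1-dKO over WT, of each tested gene in 4 lists of the interferon pathway, with bars for list medians and dashed lines for a 2-fold difference. Ifitm1 and Ifitm3 are the called genes shown, and the 9 genes and the other interferon-stimulated genes have medians of 0.31 and 0.28.

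Markers of other cells moved in the same bulk libraries. Summed macrophage markers lay at 162 to 188 CPM in WT, against 191 to 233 CPM in Prmt1-dKO testes, all 16 were detected in bulk RNA-seq, 15 were tested, and 1 was called higher (Cd14) and 1 lower (Cx3cr1), where 5.32% and 1.78% of all genes were. Lymphocyte markers summed to 3.92 to 5.28 CPM in WT, against 8.94 to 17.5 CPM in Prmt1-dKO, with Cd3e, Cd3g and Cd4 called higher among 4 of 13 tested and the other fitted below 0. Monocyte and neutrophil markers summed to 2.21 to 3.46 and 6.20 to 13.6 CPM, with S100a8, S100a9 and Csf3r called higher among 4 of 10 tested, while Ccr2 had 14, 23 and 19 counts in WT and 11, 18 and 12 in Prmt1-dKO. Among 6 plasmacytoid dendritic cell markers, whose cells are known as strong interferon producers, Ccr9 had 0, 1 and 0 counts in WT, compared with 28, 63 and 49 in Prmt1-dKO, and Siglech 0, 1 and 1 against 7, 9 and 6. Of the 3 markers of this list that were tested, 2 were fitted above 0 and 1 below (Cox6a2, with 15, 17 and 18 counts against 8, 17 and 14), and 1 was called (Ccr9).

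Markers of Leydig, peritubular and Sertoli cells held genes that fell. Leydig cell markers summed to 808 to 941 CPM in WT, against 496 to 544 CPM in Prmt1-dKO (5 of 9 called lower). Lhcgr of this list was higher in Prmt1-dKO at an FDR below 0.05 from edgeR, by less than 2-fold. Peritubular markers summed to 1351 to 1523 and 536 to 1122 CPM (4 of 7 called lower). Over all genes 1.78% were called lower and 5.32% higher. Sertoli cell markers summed to 6258 to 6650 CPM in Prmt1-dKO (1 of 14 called lower), and endothelial markers to 235 to 240 CPM in WT, against 235 to 267 CPM in Prmt1-dKO. Germ cell markers summed to 1559 to 1620 CPM in Prmt1-dKO, with 0 of 13 called. In whole testes fewer cells of a type and less RNA per cell cannot be told apart. The part of these cells in the differences of Oasl2, Bst2, Ifitm1 and Ifitm3 was not tested.

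In sorted spermatogonia 0 genes of any pathway list were called by edgeR. The 4 pathway genes with the lowest unadjusted p were Socs3, Ifnar1, Gbp3 and H2-K1. Socs3, an inhibitor of cytokine receptors, had 0 and 0 counts in WT and 592 and 515 in Prmt1-dKO (FDR = 0.0774 from edgeR). Gbp3, an interferon-induced GTPase, had 0 and 0 counts against 138 and 237 (FDR = 0.0774 from edgeR). Against a floor of 3 counts over the WT libraries these are 411.5-fold and 139-fold higher in Prmt1-dKO. That floor covers counting error only, not genes missed in a library, so neither fold is a lower bound. In both WT libraries 0 counts, with at least 1 in both Prmt1-dKO libraries, were found for 12.2% of 24498 genes. Ifnar1, a chain of the type I receptor, had 2525 and 2942 counts in WT and 1049 and 1024 in Prmt1-dKO, a log2 fold change of -1.07 (SE 0.18, FDR = 0.0774). H2-K1 had 3300 and 1444 counts against 373 and 445, a log2 fold change of -2.20 (SE 0.46, FDR = 0.0774), the opposite sign to whole testes. Socs3, Gbp3 and H2-K1 were called without either WT library and Ifnar1 without WT replicate 1, in fits that called 41.4% (without WT replicate 1) and 33.7% (without WT replicate 2) of all genes, and none of the 4 was called without either Prmt1-dKO library. By DESeq2 on all 4 libraries all of them were called, with adjusted p of 1.94e-11 for Socs3, 3.00e-06 for Gbp3, 0.000128 for Ifnar1 and 0.000169 for H2-K1. With each library left out, the log2 fold change of H2-K1 ranged from -2.66 to -1.48 and that of Ifnar1 from -1.17 to -0.93.

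Of 37 other interferon-stimulated genes with a count in the sorted cells, 8 (21.6%) had 0 counts in both WT and at least 1 in both Prmt1-dKO libraries, a pattern held by 12.2% of 24498 genes and by 0 of 7 members with a count. Without WT replicate 1 it was held by 1 member (Irf9) and 21.8% of all genes, and without WT replicate 2 by 0 members and 17.1%. Without Prmt1-dKO replicate 1 it was held by 0 members and 16.2%, and without Prmt1-dKO replicate 2 by 1 member (Rsad2) and 18.9%. The same pattern was found for 10 of 14 macrophage markers (71.4%). Lyz2 had 0 and 0 counts in WT and 385 and 260 in Prmt1-dKO, and C1qb 0 and 0 against 247 and 248, whereas the macrophage marker Adgre1 was at 0 in all 4 libraries. Summed macrophage markers lay at 5.79 to 6.85 CPM in WT, against 98.0 to 102.7 CPM in Prmt1-dKO. Of 6 endothelial markers with a count 4 showed the pattern and all but Egfl7 were at 0 in WT, while Egfl7 had 1302 and 1422 counts in WT, compared with 800 and 859 in Prmt1-dKO. The pattern was also found for 2 of 5 Leydig markers. Sertoli cell markers summed to 480 to 493 CPM in sorted WT cells, against 861 to 1035 CPM in Prmt1-dKO, with 12 of 14 fitted above 0, 0 called by edgeR and 3 called higher by DESeq2. Germ cell markers summed to 2902 to 2932 and 3018 to 3262 CPM, with 3 of 13 called higher and 1 lower by DESeq2. By DESeq2, 9 of the 14 macrophage markers with a count were called higher, where 7.33% of all genes were called higher and 3.93% lower. It called 3 of 37 other interferon-stimulated genes higher, 3 of 18 interferon-gamma genes higher and 2 lower, and 2 of 15 brakes higher. The WT libraries had counts for 17069 and 15572 genes and the Prmt1-dKO libraries for 21350 and 20159. The part of other cells and of these detection differences in the values of the pathway genes was not tested.

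Promoter peaks were taken from the CUT&Tag lists as summits within 3000 bp of any GENCODE vM21 transcript start, and a gene counts as marked where 2 or more lists of a group have one. By their entry names the 4 H3K4me3 lists were called at a q of 0.05 and the other 29 lists at a p of 0.005, and the values in the lists keep to these limits, so counts of members are not compared between H3K4me3 and the other marks as listed. H3K4me3, the mark of active promoters, was present at 4 of 9 members at P7 (Isg15, Irf7, Bst2 and Ifih1), against 30.7% of 55536 annotated genes and 81.5% of the genes tested in bulk RNA-seq. At P14 it was present at 5 of 9, now with Irf9 (the summit in the first list lay at -2994 bp from its start), against 32.9% and 83.2%. Ifit1, Ifit3, Oasl2 and Rsad2 had no H3K4me3 peak in any of the 4 lists. Irf9, whose TPM in whole testes overlapped that of Oasl2, had a peak in 1 of 2 lists at P7. The peaks come from cell suspensions enriched for germ cells, so they are not set against RNA levels of whole testes.

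Of the members' H3K4me3 peaks at P7, those of Ifih1 had the highest fold enrichment. Its P7 peaks (chr2:62645578-62646413 in replicate 1 and chr2:62646149-62646462 in replicate 2) had a fold enrichment over local background of 6.19 and 6.33, with summits at 8 and -74 bp from the start (negative is upstream), and both cover the printed ISRE site. Bst2 had P7 summits 92 and 62 bp after the start with 4.69 and 4.53-fold enrichment. Irf7 had summits 125 and 140 bp after a start with 4.06 and 5.21-fold enrichment. The Isg15 summits lay 2786 and 2807 bp after its start, and with a reach of 1000 bp Isg15 was no longer marked, which left 3 members at P7. AW011738, whose start lies 2486 bp from that of Isg15, had a log2 fold change of 0.37 in bulk RNA-seq (FDR = 0.679 from edgeR).

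H3K27ac, a mark of active promoters and enhancers, was present at 1 of 9 members at P7 (Oasl2), against 15.9% of annotated genes and 42.9% of tested genes. At P14 it was present at 4 of 9 (Irf9, Oasl2, Bst2 and Ifih1), against 25.9% and 66.3%. The Oasl2 summits at P7 lay 1620 and 288 bp after the nearest start, with 2.48 and 2.7-fold enrichment, and ranked at 95.6% and 84.6% of their lists by p counted from the strongest. At a q of at most 0.01 no member was marked by H3K27ac at either age. That limit kept 4515 of 21974 and 6207 of 23780 peaks in the P7 lists, and the share of all genes under it was not computed.

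**Figure D4:**
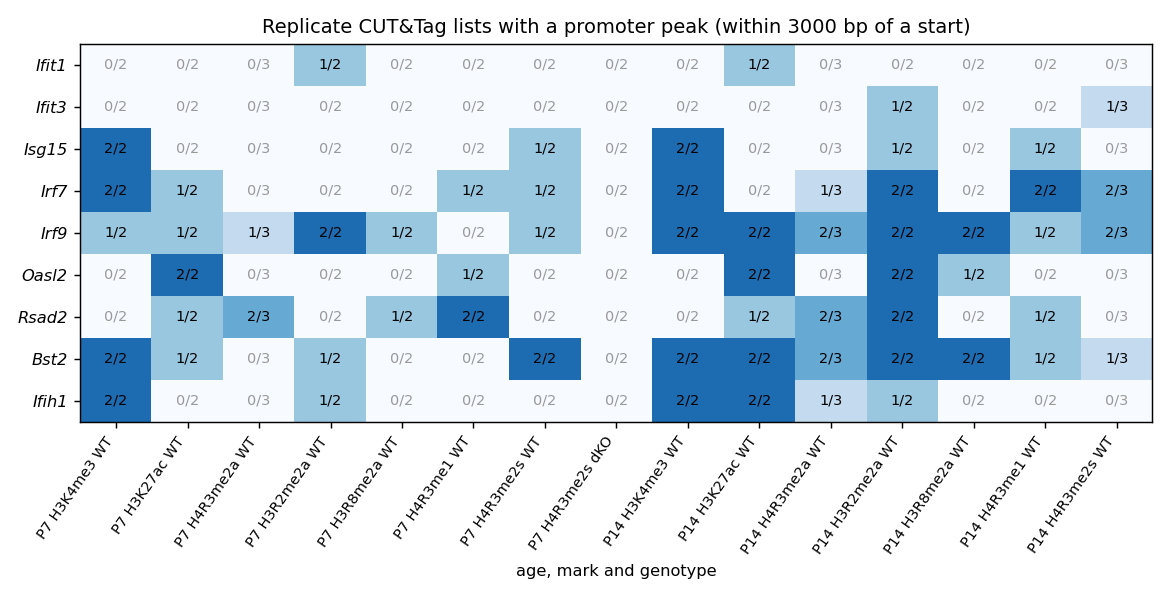
Number of replicate lists with a promoter peak out of all lists, for each of the 9 genes (rows) and each age, mark and genotype (columns), with darker cells for a larger share. Ifit1 and Ifit3 have a peak in at most 1 list of any column, and the P7 H4R3me2s Prmt1-dKO column is at 0 for all 9 genes.

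The arginine marks, of which H4R3me2a is the best known product of Prmt1, were present at few members at P7. H4R3me2a was found at 1 of 9 (Rsad2, in 2 of 3 lists), against 8.36% of annotated and 19.8% of tested genes. H3R2me2a was found at 1 (Irf9), against 5.86% and 14.1%, H3R8me2a at 0, against 5.27% and 13.1%, and H4R3me1 at 1 (Rsad2), against 5.82% and 14.1%. The Rsad2 peaks of H4R3me2a had summits at -15 and 305 bp from an annotated start with 2.98 and 3.29-fold enrichment. None of the members marked by an arginine mark at P7 remained so at a q of at most 0.01. Of the 16995 peaks of H4R3me2a replicate 1, for example, 1773 passed this limit. The share of all genes under it was not computed.

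At P14 the arginine marks were listed at more genes in general. H4R3me2a was present at 3 of 9 (Irf9, Rsad2 and Bst2), against 27.1% of annotated and 62.0% of tested genes. H3R2me2a was present at 5 (Irf7, Irf9, Oasl2, Rsad2 and Bst2), against 28.1% and 64.8%, H3R8me2a at 2 (Irf9 and Bst2), against 17.4% and 43.6%, and H4R3me1 at 1 (Irf7), against 15.6% and 39.4%. H4R3me2s was present at 2 members (Irf7 and Irf9), against 17.9% and 45.6%. Bst2 had H3R2me2a summits 54 and 53 bp after its start, in peaks of 689 and 642 bp with 2.71 and 4.01-fold enrichment.

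**Figure D5:**
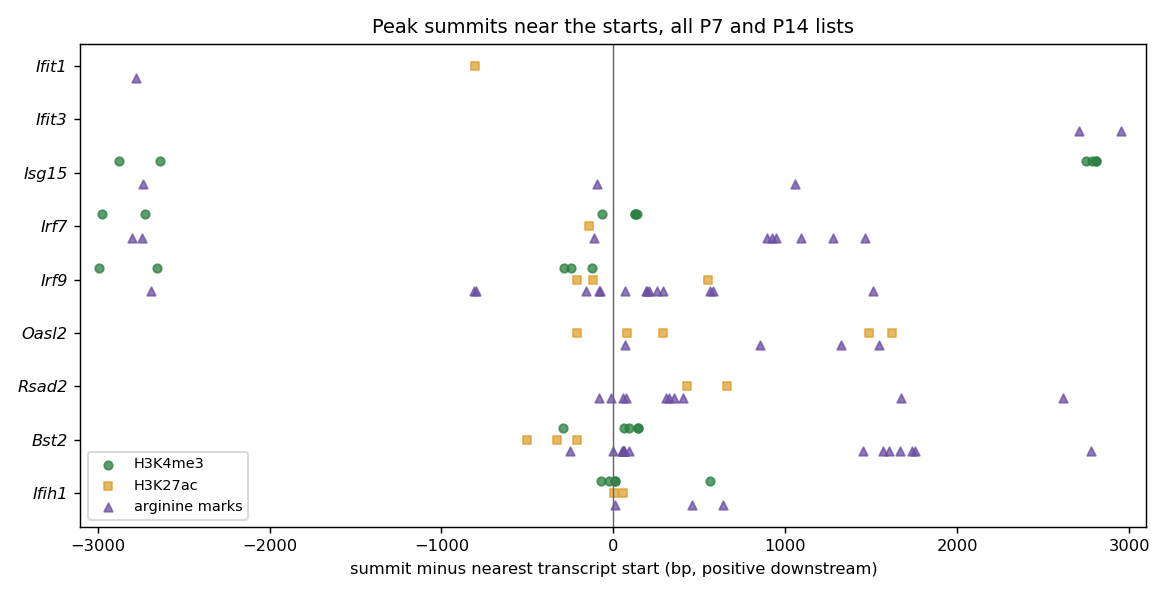
Distance of every listed peak summit from the nearest transcript start (bp, positive downstream) for each of the 9 genes, over all P7 and P14 lists, with green circles for H3K4me3, orange squares for H3K27ac and purple triangles for arginine marks. Bst2 and Ifih1 have H3K4me3 summits at the start, whereas those of Isg15 lie at -2876 to -2637 and 2748 to 2807 bp.

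H4R3me2s, the symmetric form of the mark, is the one for which both genotypes were profiled at P7. In WT, Bst2 had a promoter peak in both lists and Isg15, Irf7 and Irf9 in 1 of 2, so that 1 member was marked, against 9.35% of annotated and 24.1% of tested genes. In Prmt1-dKO, 0 of 9 members had a peak in either list. By the rule of at least 2 lists 0 members were marked, against 5.20% of annotated and 12.6% of tested genes. The Bst2 summits of the WT lists lay at different places, 61 and 2778 bp after the start in one and 1606 bp in the other. Each list was called alone, with 19981 and 36145 peaks in WT and 33941 and 28221 in Prmt1-dKO, and the difference was not tested. The labels give tamoxifen for the Prmt1-dKO lists and not for the WT lists, so genotype and tamoxifen cannot be told apart. The Isg15 peak of WT replicate 1 (summit 1058 bp after the start) had 12.3-fold enrichment and ranked within the first 0.85% of its list by p, while WT replicate 2 held none.

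Genes that share a promoter region with a member had values of their own. Ifit1bl2 starts 128 bp from Ifit1 and had 29 counts over all 6 bulk libraries, too few to be tested. Rnf31 starts 2415 bp from Irf9 and had a log2 fold change of -0.19 (FDR = 0.284 from edgeR). Peaks within 3000 bp of these starts cannot be assigned to one of the genes by position alone.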

How the data were processed

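Each RNA table holds the expected counts and TPM that the authors deposited after fastp, STAR and RSEM on mm10, unnormalized and scaled within each library. FPKM that the authors deposited beside them were not used. The version and annotation of RSEM: not given in the sources used here. Each peak list that the authors deposited was called per sample with MACS2 2.1.0 and gives a fold enrichment (a ratio over local background), −log10 p and −log10 q. Read numbers behind the lists are unknown.

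Expected counts were rounded, filtered with filterByExpr (minimum 10, summed minimum 15) and scaled by TMM. Genotypes were compared within each assay in edgeR 4.0.16 (R 4.3.3) by quasi-likelihood without a replicate block, with DESeq2 1.42.0 as an alternative. FDR is Benjamini-Hochberg adjusted over all genes tested, and a gene was called below 0.05 at 2-fold or more. The script was tested on simulated data. Log2 CPM used a prior count of 2, and intervals are at 95%. Counts of 0 cover counting error only. Pandas 2.3.3 in Python 3.11.15 served for all other steps.

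The 9 genes and all lists were chosen with earlier results of these data known. Named are the 9 genes, Prmt1, up to 6 called genes per pathway list and direction, the 4 pathway genes with the lowest p where none was called, the 5 nearest profiles, up to 3 markers per list and genes that start within 3000 bp of a member. Genes that passed the FDR alone and further monocyte and macrophage markers were named after their values were seen. Alternatives added after seeing the data left out libraries or used DESeq2 for list counts, named pathway genes and detection patterns. Of the pathway lists, 2 genes are not reported here, so their lists are given without counts, a choice made after the data were seen, while all tests ran over all genes.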

Additional observations from a re-analysis of the deposited data

How the results depend on the processing

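Few counts limit Ifit1, Ifit3, Isg15 and Rsad2 in whole testes, and 2 unlike WT libraries limit every value of the sorted cells. No member was called in either assay with DESeq2, RLE size factors, no filter on low counts or the replicate block. Without the threshold on the fold, 2 members were called in bulk RNA-seq, where 10.6% of all genes were called higher and 8.51% lower.

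Leaving out each library in turn, 0 to 1 members were called in bulk RNA-seq, 0 to 2 in Smart-seq2 and 0 to 2 by the test between assays. The log2 fold change in bulk RNA-seq then ranged from -0.57 to 0.81 for Ifit3, -0.048 to 1.05 for Isg15, -0.014 to 0.43 for Irf7 and -0.026 to 0.24 for Irf9, and in Smart-seq2 from -0.37 to 10.28 for Irf9. The number of called list genes in bulk RNA-seq ranged from 1 to 2 for other interferon-stimulated genes and 0 to 1 for interferon-gamma genes. In Smart-seq2 it ranged from 0 to 20 of 29 other interferon-stimulated genes, 0 to 7 of 12 interferon-gamma genes and 0 to 5 of 15 brakes, with calls only without a WT library, where 41.4% (without replicate 1) and 33.7% (without replicate 2) of all genes were called. DESeq2 called 3 of 37, 5 of 18 and 2 of 15 genes of these lists and 11.3% of all genes in Smart-seq2. The cause was not tested.

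Same-numbered libraries did not deviate together (r = 0.0825, -0.221 and -0.119 in bulk RNA-seq, 0.0177 in Smart-seq2), so the numbers were not taken as pairs. With the replicate block, 0 members were called in bulk RNA-seq, in Smart-seq2 and by the test between assays, and Bst2 had a log2 fold change of 0.85 in bulk RNA-seq (FDR = 0.098 from edgeR).

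At a q of at most 0.01, which puts all lists at 1 limit, the number of marked members was 0 for every mark except H3K4me3 at both ages. This limit kept 1695 of 18821 peaks of H3R2me2a replicate 1 at P7, and 19058 of 19162 of H3K4me3 replicate 1. The share of all genes was not computed under this or the next settings. These counts are therefore not a result about the members. With a summit within 1000 bp it was 0 for H4R3me1, H3K27ac and H4R3me2s at P7 and for H4R3me2s at P14, and 3 for H3R2me2a and H3K4me3 at P14. With a peak in at least 1 list it was 2 for H4R3me2a, 4 for H3R2me2a, 2 for H3R8me2a, 3 for H4R3me1, 5 for H3K27ac and 4 for H4R3me2s in WT at P7, and 5 for H4R3me2a, 8 for H3R2me2a, 5 for H4R3me1 and 4 for H4R3me2s at P14. With a peak in every list it was 0 for H4R3me2a at both ages and for H4R3me2s at P14. Ranked by median TPM, 5 of 9 members kept their place in bulk RNA-seq.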
